A study of Mus musculus with 3 samples.

Results

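Metallothioneins and zinc transporters were examined in activated CD4 T cells grown in 3 media. The group holds the metallothioneins Mt1 and Mt2, the metal-responsive transcription factor Mtf1, the zinc exporters Slc30a1 and Slc30a5, and the zinc importers Slc39a1, Slc39a6 and Slc39a10. These 8 genes were chosen by symbol, out of 23282 rows, with their levels in these same libraries known. All 8 passed the filter on low values that left 12770 rows for testing. Their levels and differences are therefore a description. Where a member is said to be called, it passed an adjusted p of 0.05 in a fit over all tested rows, on the same values that chose it, and the call is no independent support. The share of all rows called is printed beside each count of members called, and nothing is read from it.

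The cells were C57BL/6 CD4 T cells (C57BL/6 J in the methods of the study), isolated from the spleen and from lymph nodes, and all were stimulated for 72 h with antibodies to CD3 and CD28 at 2 µg/ml. The control group grew in complete medium (CM), that is RPMI with fetal bovine serum. The nutrient-reduced group grew in dialyzed medium (DM), an RPMI base lacking amino acids whose serum had lost small molecules through dialysis tubing. The third group grew in DM with 30 µM methionine added (DM+Met). Each medium had 2 libraries, taken as replicates because the study describes independent samples, although the labels do not say what the numbered files are. If they are technical, the spread is technical too. The spread between the 2 libraries of a medium was set against counting error over genes with at least 20 reads in both together. Chi-square per degree of freedom was 19.0 for CM, 35.9 for DM and 18.2 for DM+Met, above counting error alone. What made this spread was not tested. Animals per library were not given.

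Zinc is bound in cells by metallothioneins, small cysteine-rich proteins that buffer zinc and copper. When free zinc rises, the zinc-finger factor MTF-1, the product of Mtf1, binds metal response elements in promoters and switches on metallothionein genes and Slc30a1, which encodes the zinc exporter of the plasma membrane. SLC30 proteins lower cytosolic zinc by moving it out of the cell or into compartments, and SLC39 (ZIP) proteins raise it. Metallothionein genes are also known to respond to glucocorticoids and to oxidative stress. In T cells, zinc entering through ZIP transporters is known to take part in receptor signaling.

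The start-site windows of Mt1, Mt2 and Slc30a1 are shown because these are the classical MTF-1 targets among the 8 genes and their levels moved in opposite directions between media. Each is the 300 bases from 250 before to 50 after a RefSeq start site on GRCm38.p6, plus strand. Capitals mark the core of the metal response element, TGCACNC or TGCGCNC, on either strand. Their positions are chr8:94178839-94179138 for Mt1, chr8:94172368-94172667 for Mt2 and chr1:191906531-191906830 for Slc30a1.
Mt1: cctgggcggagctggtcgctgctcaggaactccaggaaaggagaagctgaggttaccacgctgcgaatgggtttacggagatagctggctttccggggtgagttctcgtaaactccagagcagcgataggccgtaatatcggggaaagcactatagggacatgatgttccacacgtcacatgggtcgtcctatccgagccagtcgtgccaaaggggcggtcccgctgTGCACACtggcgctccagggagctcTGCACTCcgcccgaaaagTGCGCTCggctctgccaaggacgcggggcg
Mt2: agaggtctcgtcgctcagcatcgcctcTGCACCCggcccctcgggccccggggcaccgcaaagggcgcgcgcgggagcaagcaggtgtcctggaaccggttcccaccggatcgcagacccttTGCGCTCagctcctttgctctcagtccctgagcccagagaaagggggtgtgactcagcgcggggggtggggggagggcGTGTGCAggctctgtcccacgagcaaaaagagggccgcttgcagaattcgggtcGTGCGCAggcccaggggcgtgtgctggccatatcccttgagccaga
Slc30a1: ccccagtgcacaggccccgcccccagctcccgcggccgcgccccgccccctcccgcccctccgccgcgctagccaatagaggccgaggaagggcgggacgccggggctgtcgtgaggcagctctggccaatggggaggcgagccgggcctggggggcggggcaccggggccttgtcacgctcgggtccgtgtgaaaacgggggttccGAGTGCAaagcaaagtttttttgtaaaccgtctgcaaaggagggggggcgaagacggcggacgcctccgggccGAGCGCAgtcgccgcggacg

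Mt1 and Mt2 lie side by side on chromosome 8, both on the plus strand. GENCODE on GRCm38 places Mt2 at chr8:94172664-94173568 and Mt1 at chr8:94179082-94180327, with 5513 bases between them. The Mt1 window held 3 matches to the core, beginning at positions −23, 2 and 20 from the RefSeq start site, and the Mt2 window held 4, at −223, −128, −50 and 4. The Slc30a1 window held 2, at −43 and 30. Of 32851 RefSeq windows of the same length, 25.7% held at least 1 match, 7.11% at least 2, 1.97% at least 3 and 0.517% at least 4. A subset of 9141 windows was at least as rich in G and C as the lower of the Mt1 and Mt2 windows (60.7%). Of these, 46.1% held at least 1 match, 5.22% at least 3 and 1.35% at least 4. Their share with at least 2 was not taken. The Slc30a1 window was 73% G and C, so its 2 matches have no share from windows as rich beside them. The windows of Mtf1, Slc39a1 and Slc39a10 held 0 and that of Slc30a5 held 1. Across 22 windows of the other zinc family genes, the highest number was 3, for Slc30a4 and Slc30a10. Annotated starts differ: the GENCODE start of Mt2, 94172664, lies close to the end of its window, 94172667. Positions of matches therefore depend on the start site used, and matches beyond a window were not counted. The start sites used in these cells were not measured. A match is a string of letters and not a shown binding site, and none of these windows was measured for binding. The longest identical run shared by any annotated protein-coding transcripts of Mt1 and Mt2 was 20 bases, and 10 to 12 bases at their 3′ ends. This bears on how far the counting could mix their reads.

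**Figure D1:**
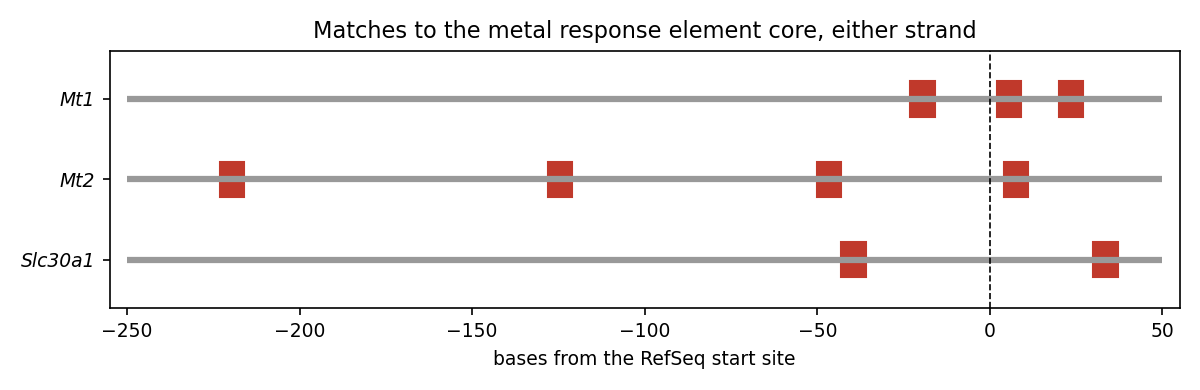
Matches to the metal response element core on either strand (red) along the windows of Mt1, Mt2 and Slc30a1 (grey bars), with the distance in bases from the RefSeq start site (dashed line) on the horizontal axis. Within these windows Mt1 holds 3 matches, Mt2 holds 4 and Slc30a1 holds 2, and matches beyond them were not counted.

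Depth was 8504742 to 12377285 reads per library, and the levels below are the deposited log2 values of CPM plus 1, where CPM are counts brought to a common library size with TMM scaling. A floor of 3 reads lay at a log2 value of 0.323 to 0.469. Summed CD4 T cell markers (Cd3d, Cd3e, Cd3g, Cd4, Cd28, Lck) reached 1231 to 1480 CPM in every library, with 6 of 6 read. Markers of other cells were lower. The CD8 pair summed to 66.4 and 74.2 CPM in CM against 23.4 to 34.2 in the dialyzed media, the 5 B cell markers to 57.6 to 95.3 and the 8 myeloid markers to 40.5 to 80.5 across all libraries. The 4 erythroid markers summed to 85.2 and 94.5 CPM for CM, 42.4 and 73.8 for DM and 21.3 and 24.5 for DM+Met. Stromal and NK markers stayed at or under 7.97 and 4.94 CPM. The part of the CD8 and erythroid signals in the metallothionein difference was not tested. In bulk libraries, fewer cells of a type and less RNA per cell cannot be told apart. The ribosomal precursor Rn45s took 31.0% to 38.3% of reads in the CM and DM libraries but only 15.5% and 20.1% with methionine, which enters every scaling to library totals.

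The metallothioneins were high in CM and low in both dialyzed media. Mt1 stood at log2 values of 9.81 and 10.02 in the CM libraries, 6.28 and 6.15 in the DM libraries, and 6.15 and 6.22 with methionine. These rest on 7846 and 8088 reads for CM, 752 and 793 for DM, and 837 and 878 for DM+Met. Both CM libraries were far above the other 4, and DM overlapped with DM+Met.

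Mt2 followed the same order. Its log2 values were 9.76 and 9.64 for CM, 5.03 and 5.47 for DM, and 5.16 and 5.75 for DM+Met. The CM libraries had 7610 and 6200 reads, against 311 to 628 in the 4 others. The DM and DM+Met libraries overlapped.

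Between DM and CM, Mt1 fell by 3.70 on the log2 scale (SE 0.16), a 13.0-fold lower level, and Mt2 fell by 4.45 (SE 0.24), 21.8-fold lower. Ordered from the lowest change, Mt2 ranked 9 and Mt1 ranked 28 among 12770 rows. These were the only 2 of the 8 members called in this comparison (limma, adjusted p below 0.05), in which 16.9% of all rows were called. Over 17 alternatives the difference ran from −3.80 to −3.54 for Mt1 and from −4.67 to −4.22 for Mt2.

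Adding methionine left both metallothioneins near their DM level. Mt1 differed by −0.03 (SE 0.16) and Mt2 by 0.20 (SE 0.24) between DM+Met and DM. Of the 8 members, 0 were called here by limma and 0 by limma-voom, beside 0.0548% of all rows (7 of 12770). In limma 1 of the 8 had an unadjusted p below 0.05, as had 1238 of the 12770 rows. Relative to CM, Mt1 in DM+Met differed by −3.72 (SE 0.16) and Mt2 by −4.25 (SE 0.24), ranks 35 and 14 from the lowest. The comparison of DM+Met with CM shares its CM libraries with that of DM with CM.

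Together, Mt1 and Mt2 made up 1760 and 1830 CPM in the CM libraries, 108 and 113 in the DM libraries, and 105 and 126 with methionine. Their share of all reads was 0.163% ± 0.00713 for CM, 0.0103% ± 0.00015 for DM and 0.0138% ± 0.00134 for DM+Met (SD, n = 2 each). This total includes Rn45s, at 37.2% and 38.3% of reads for DM but 15.5% and 20.1% for DM+Met. The shares of these 2 media therefore stand on unlike totals. In scaled CPM the DM mean was 0.959 of the DM+Met mean. The mean summed CPM was 16.2-fold higher in CM than in DM and 15.5-fold higher than in DM+Met. In CM, Mt1 ranked 99 and 81 and Mt2 ranked 105 and 106 among all rows by CPM, and in the other libraries neither ranked above 1889. The library kit reads the 3′ end, so a transcript gives a read whatever its length.

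The balance of the pair varied between libraries. The ratio of Mt1 to Mt2 CPM was 1.03 and 1.30 for CM, 2.42 and 1.61 for DM, and 2.02 and 1.40 for DM+Met. The 2 CM libraries lay below the other 4, but the libraries of a dialyzed medium differed from each other by more than the nearest of them did from CM.

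**Figure D2:**
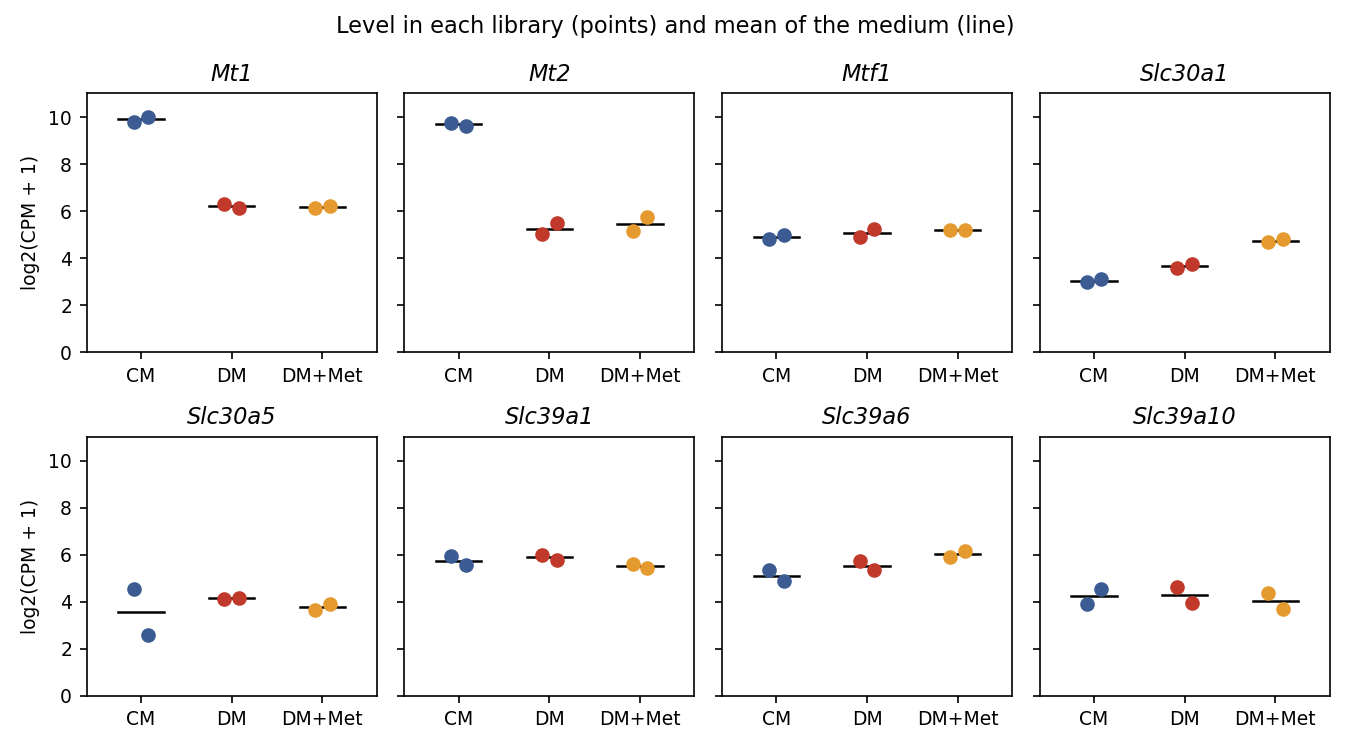
Level of each of the 8 genes as log2(CPM + 1) (vertical axis) in the 2 libraries (points) of CM, DM and DM+Met, with the mean of the medium as a line. Mt1 and Mt2 are near 10 in CM and between 5.03 and 6.28 in the dialyzed media, and Slc30a1 steps up from CM to DM to DM+Met.

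Mtf1, which encodes the metal sensor MTF-1, was not called in any comparison. Its log2 values were 4.80 and 4.97 for CM, 4.88 and 5.25 for DM, and 5.18 and 5.19 for DM+Met. The difference was 0.19 (SE 0.27) between DM and CM and 0.12 between DM+Met and DM, each under its SE. DM+Met lay above CM by 0.31 (SE 0.27), without overlap between their libraries. The share of all rows without overlap was not taken. With 2 libraries per medium nothing is read from a lack of overlap, for this or any other gene.

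Slc30a1, in contrast to the metallothioneins, was lowest in CM. The log2 values of this exporter were 2.99 and 3.10 for CM, 3.59 and 3.74 for DM, and 4.67 and 4.81 for DM+Met. The reads were 61 and 59, then 108 and 140, then 292 and 323. The 3 media did not overlap, and the SD within a medium was 0.076 to 0.11 (n = 2).

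On the fold scale, Slc30a1 was 1.54-fold higher in DM than in CM (log2 difference 0.62, SE 0.39) and 2.11-fold higher in DM+Met than in DM (1.08, SE 0.39), neither of them called. It was 3.25-fold higher in DM+Met than in CM (1.70, SE 0.39), which was called. Ordered from the highest change between DM+Met and DM, it ranked 480 of 12770 rows, and its difference there ran from 0.88 to 1.43 over 17 alternatives, the highest under library totals, where all rows shifted too. The call between DM+Met and CM was lost without CM library 1, CM library 2, DM+Met library 1 or DM+Met library 2, while the difference stayed between 1.63 and 1.77.

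Slc30a5, an exporter that loads zinc into the early secretory pathway, could not be placed in CM. Its CM libraries were at 4.52 and 2.58 (192 and 39 reads), its DM libraries at 4.13 and 4.17 and its DM+Met libraries at 3.63 and 3.91. The difference between DM and CM was 0.60 (SE 0.58), and it was −0.36 without CM library 2 and 1.57 without CM library 1. For DM+Met against CM it was 0.22 (SE 0.58), with −0.75 and 1.19 when those libraries were left out. Both DM+Met libraries lay below both DM libraries, by −0.38 in the mean (SE 0.58), without a call.

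Of the 3 importers, Slc39a1 and Slc39a10 were not called in any comparison. Slc39a1, a ZIP importer at the cell surface, stood at 5.94 and 5.55 for CM, 6.00 and 5.79 for DM, and 5.61 and 5.43 for DM+Met. Slc39a10, another importer of the plasma membrane, had 3.92 and 4.55 for CM, 4.62 and 3.96 for DM, and 4.38 and 3.67 for DM+Met. The SD within a medium was 0.45 to 0.50 (n = 2) for Slc39a10, and its differences between media, from −0.26 to 0.06, were smaller than the SE of 0.43 and changed sign when single libraries were left out. Those of Slc39a1 were 0.15 (SE 0.24) between DM and CM and −0.37 between DM+Met and DM. In the latter, both DM+Met libraries of Slc39a1 lay below both DM libraries.

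Slc39a6, which encodes the importer ZIP6, was higher in DM+Met than in CM. Its log2 values were 5.33 and 4.87 for CM, 5.73 and 5.32 for DM, and 5.91 and 6.15 for DM+Met. CM and DM overlapped, while both DM+Met libraries lay above the other 4. The difference was 0.42 (SE 0.27) for DM against CM, 0.51 for DM+Met against DM and 0.93 for DM+Met against CM, a 1.90-fold higher level.

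In DM+Met against CM, 4 of the 8 members were called, where 15.3% of all rows were called: Mt1 and Mt2 lower, Slc30a1 and Slc39a6 higher. The Slc39a6 call held in 6 of 17 alternatives and in none of the 6 fits that left out a library, with values of 0.70 to 1.16. Over the 8 members the median difference was 0.17 for DM against CM, 0.05 for DM+Met against DM and 0.01 for DM+Met against CM, beside 0.07, 0.01 and 0.06 over all rows tested.

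**Figure D3:**
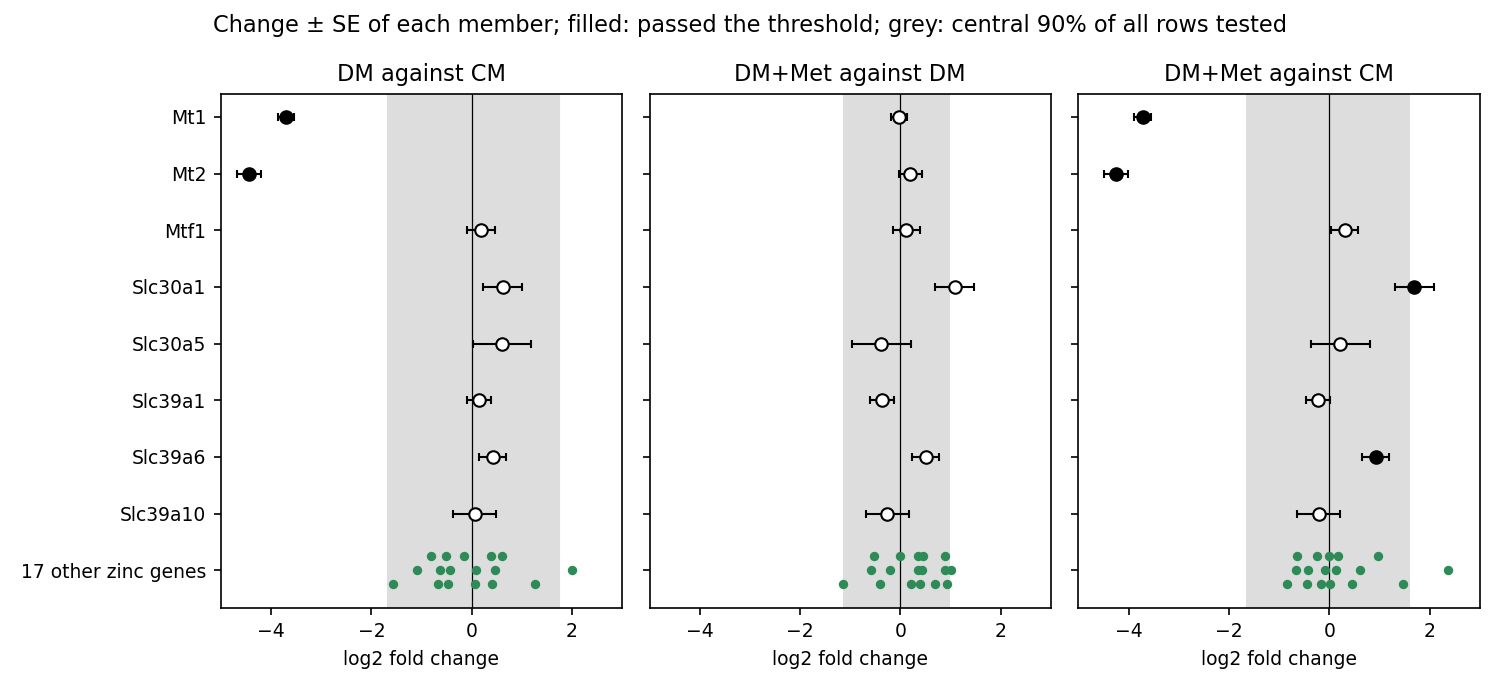
Log2 fold change (horizontal axis) with its SE for the 8 members in the 3 comparisons, filled where the adjusted p passed the threshold, above the 17 tested zinc genes outside the group (green). The grey band holds the central 90% of all 12770 rows. Mt1 and Mt2 lie far left of the band wherever CM is the reference and near 0 between DM+Met and DM.

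The other zinc genes were what the choice of members left, namely the remaining 8 SLC30 and 11 SLC39 genes, Mt3 and Mt4, and 4 further zinc-handling genes. That choice, made with these values known, had taken out the zinc genes that were called. A low count here was therefore partly set in advance, and nothing is read from it. Of these 25, 17 passed the filter. In limma 0 of 17 were called in each of the 3 comparisons, with 3, 1 and 3 genes at an unadjusted p below 0.05 for DM against CM, DM+Met against DM and DM+Met against CM. Over all 12770 rows the calls came to 16.9%, 0.0548% and 15.3%, and 4170, 1238 and 3870 rows had an unadjusted p below 0.05. Limma-voom on the recovered reads also called 0, with 2, 3 and 4 genes. The median difference was −0.15, 0.35 and −0.01, beside 0.07, 0.01 and 0.06 over all rows. Mt3 and Mt4, the other metallothioneins of the chromosome 8 cluster, were not tested. The CM libraries held 15 and 4 reads of Mt3, the DM libraries 0 each and the DM+Met libraries 2 and 0, and Mt4 had 0 reads in every library, under the floor of 3.

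The family genes nearest to a call are named here after their values were seen. Slc39a3, an importer of the plasma membrane, was read 1 and 31 times for CM, 166 and 45 times for DM, and 125 and 139 times for DM+Met. Its difference from CM was 2.00 in DM (SE 0.82, limma adjusted p 0.121) and 2.36 in DM+Met (limma adjusted p 0.0811), with 0.93 and 1.28 when CM library 1 was left out. Adjusted p over the alternatives ran from 0.0771 to 0.528 and from 0.0374 to 0.386.

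Among exporters, Slc30a7, a transporter of the Golgi, differed by −0.81 between DM and CM (SE 0.34, limma adjusted p 0.128; 0.0808 to 0.546 over alternatives), and by −0.32 without DM library 1. Slc30a9, described in mitochondria, differed by −0.85 between DM+Met and CM (SE 0.31, limma adjusted p 0.0938; 0.0677 to 0.522 over alternatives), and by −0.54 without DM+Met library 2. For Slc30a4, a vesicle transporter, the value between DM+Met and DM was 0.94 (SE 0.40, limma adjusted p 0.489; 0.137 to 1 over alternatives). The importer Slc39a9 differed by 0.97 between DM+Met and CM (SE 0.41, limma adjusted p 0.142; 0.0383 to 0.491 over alternatives), and by 0.54 without CM library 2. Tmem163, a zinc transporter of vesicles, was read 23 and 11 times for CM, 0 times in both DM libraries, and 19 and 4 times for DM+Met. Its adjusted p between DM and CM was 0.0964 in limma, and 0.0537 to 0.280 over the alternatives.

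The summed transporters showed no difference of comparable size. The 10 SLC30 genes summed to 194 and 145 CPM for CM, 97.4 and 154 for DM, and 162 and 141 for DM+Met, so the media overlapped. The 14 SLC39 genes summed to 279 and 274 CPM for CM, 322 and 251 for DM, and 325 and 330 for DM+Met. Both DM+Met libraries lay above all others for the SLC39 sum, DM library 1 close beneath them.

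**Figure D4:**
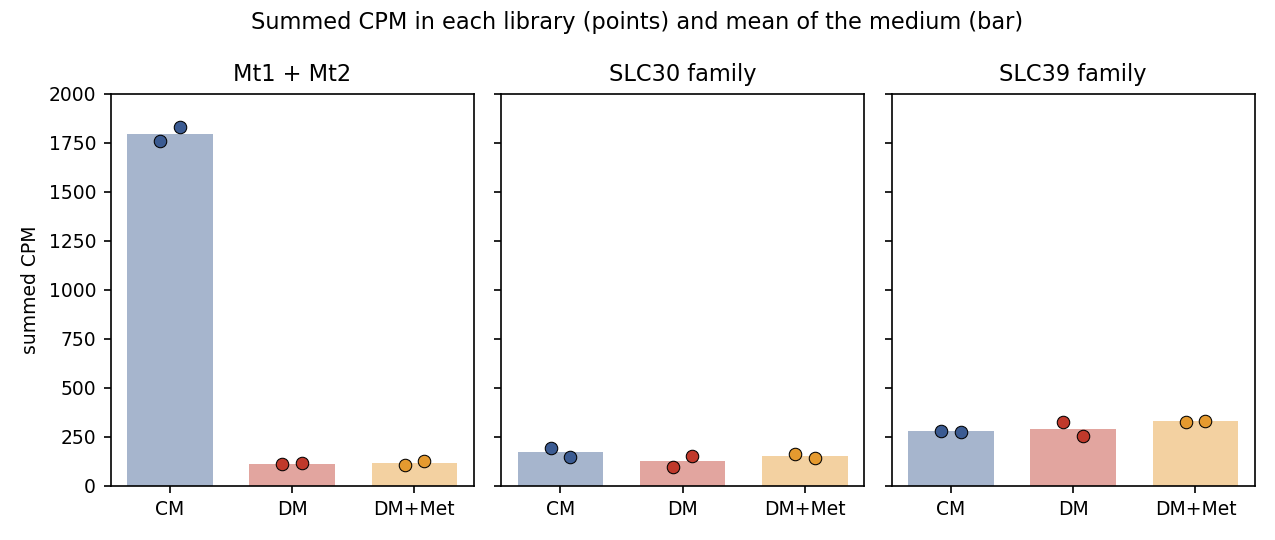
Summed CPM (vertical axis) of Mt1 and Mt2, of the 10 SLC30 genes and of the 14 SLC39 genes in each library (points), with bars at the mean of the 2 libraries of a medium. The metallothionein sum is 1760 and 1830 CPM in CM and between 105 and 126 in the other libraries, and the transporter sums stay between 97.4 and 330 CPM.

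Genes of other metals and of pathways that share control of metallothioneins were called in both directions. The counts below stand beside 16.9% of all rows called between DM and CM and 15.3% between DM+Met and CM, and with lists this short nothing is read from a count near those shares. Of 14 iron genes, 2 were lower in DM than in CM and in DM+Met than in CM, a share near that of all rows, with medians of −0.38 and −0.26. Tfrc, the transferrin receptor for iron uptake, fell by 1.65 in DM (SE 0.19, limma adjusted p 6.93e-04) and by 2.15 in DM+Met (limma adjusted p 1.49e-04), and kept both calls in 17 of 17 alternatives. Pcbp2, an RNA-binding protein that also carries iron, fell by 0.88 and by 0.63. It lost the first call without CM library 1 and the second without any of 4 libraries in turn (either of CM or of DM+Met). Both calls of Pcbp2 were also lost without the intensity trend, and the second under library totals.

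Of 10 tested copper genes, Slc31a2, a copper transporter, was higher in both dialyzed media, by 2.74 (SE 0.69, limma adjusted p 0.0247) and 2.62 (adjusted p 0.0309), and Sod1, the copper and zinc superoxide dismutase, was lower by −0.84 and −0.86 (limma adjusted p 0.00476 and 0.00395). Of Slc31a2, 23 and 0 reads came from the CM libraries. Its difference was 1.82 and 1.69 without CM library 2, and both its calls were lost in 10 of 16 alternatives. Sod1 lost its call between DM and CM without either CM library, and between DM+Met and CM without CM library 2 or either DM+Met library. Both calls of Sod1 were also lost without the intensity trend, and the second under library totals. The median of the list was −0.77 and −0.48. Between DM+Met and DM limma called 0 of the copper and 0 of the iron genes, with 0 and 2 at an unadjusted p below 0.05.

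Among oxidative stress genes controlled by NRF2, those called were higher, but not every gene of the list rose. Of 8 such genes, Gclc was called between DM and CM, and Gclc, Gclm and Hmox1 between DM+Met and CM, all higher. The list medians were 0.62 and 1.16. Osgin1 and Txnrd1 are named after their values were seen. Osgin1 differed from CM by −1.90 in DM and −1.74 in DM+Met (SE 0.72), without overlap and without a call. Txnrd1 differed by −0.30 in DM (SE 0.27) and 0.17 in DM+Met, also without a call. The rest of the list had higher means than CM in both media. Gclc, the catalytic subunit of glutathione synthesis, had log2 values of 5.81 and 5.85 for CM, 6.46 and 6.63 for DM, and 7.61 and 7.45 for DM+Met. It was higher by 0.72 in DM (SE 0.18, limma adjusted p 0.0252) and by 1.70 in DM+Met (adjusted p 3.62e-04). The media did not overlap, in the order also seen for Slc30a1. The call in DM+Met held in 17 of 17 alternatives, and that in DM was lost without any of the 6 libraries in turn. The call in DM was also lost without the intensity trend and with only the media compared.

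Gclm, the modifier subunit, was higher in DM+Met than in CM by 1.59 (SE 0.36, limma adjusted p 0.0168). Hmox1, the heme-degrading enzyme, was higher by 2.00 (SE 0.52, adjusted p 0.0289), and by 1.23 without CM library 1. Gclm lost the call without either CM or either DM+Met library, and Hmox1 lost it in all fits that left out a library except the fit without CM library 2. Both genes also lost it without the intensity trend. Hmox1 lost it too without a filter, with a pseudocount of 0.1 and with only the media compared. Between DM+Met and DM 0 of 8 were called in limma, with 3 at an unadjusted p below 0.05 and a median of 0.59.

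Of 6 glucocorticoid-induced genes, 1 was lower and 2 were higher in both dialyzed media than in CM, where 16.9% and 15.3% of all rows were called. Fkbp5, a co-chaperone of steroid receptors, fell by 1.82 in DM (SE 0.38, limma adjusted p 0.0122) and by 1.65 in DM+Met (adjusted p 0.0184). Sgk1, a kinase, rose by 1.77 and 1.74, and Dusp1, a phosphatase, by 1.40 and 1.25 (limma adjusted p from 0.0168 to 0.0373). The list median was 0.03 in DM and 0.61 in DM+Met. Each of these calls was lost in at least 4 of the 6 fits without a library, and also under some other alternative. Limma called 0 of the 6 between DM+Met and DM, with 0 at an unadjusted p below 0.05.

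Members, predicted genes and ribosomal pseudogenes were passed over in naming the genes most like Mt1. Of the rest, those whose levels followed Mt1 most closely over the 6 libraries were Psat1, Sub1, Rpl6, Serinc3 and Runx3, with Pearson's r of 0.998 to 0.999. Psat1, an enzyme of serine synthesis, stood at 6.77 and 6.81 in CM and between 5.68 and 5.71 in the other libraries. Of 7780 genes searched, 412 had an r above 0.95, so the pattern of 2 high CM libraries and 4 low ones was widespread. For Slc39a10 the closest by the same rule were Mtmr4 (r = 0.981), Mis18a, Miip, Tm9sf4 and Ppp2ca, and 2 genes exceeded 0.95. The 6 points of each correlation share library depth and scaling, and no p is given.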

How the data were processed

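CD4 T cells in 3 media were sequenced with a QuantSeq 3′ kit, 2 libraries per medium. The authors deposited log2 values of TMM-scaled CPM plus 1 for 23282 rows. The unit was read off the values, which step by whole reads: at least 99.8% of values of up to 300 reads lay within 0.1 of a whole number. Per the labels the processing notes name Bowtie2, bedtools and the build mm10 (GRCm38). Annotation and strand setting are not given in the sources used here, so antisense or overlapping genes cannot be told apart.

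Rows were tested where at least 2 libraries reached 0.946 CPM (10 reads at the median scaled depth) and reads totalled 15 or more. The 3 media entered a single fit of the deposited values (limma 3.58.1, R 4.3.3, empirical Bayes with an intensity trend and 6.87 prior degrees of freedom), checked on simulated data. The simulated reads had the same dispersion for every gene. That check therefore does not cover the uneven spread between genes in these libraries and does not show how well the calls here hold. All tests were two-sided, with Benjamini-Hochberg adjustment over all rows and a threshold of 0.05. Fold changes on this scale understate changes of low genes. Printed SDs reflect the spread between the libraries of a medium. Printed SEs come from the empirical Bayes variance, which also draws on other rows of like level, and are not the gene's own spread alone. For Slc30a1 the SE was 0.39, beside SDs of 0.076 to 0.11 within a medium, and it was 0.25 without the intensity trend. The floor of 3 reads covers counting error only.

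The members and lists were chosen with earlier results of these data known. All 8 members are named, as is any called gene of the zinc lists, and at most 3 called genes of each other list per comparison. The 5 genes most correlated with Mt1 and Slc39a10 at a mean of 10 CPM or more are also named. Members, predicted genes and ribosomal pseudogenes were passed over there. Start-site windows came from RefSeq (GRCm38.p6), with 7 of 8 members matched. Alternatives covered scaling, filters, pseudocounts, limma-voom, the variance trend, the media in the fit, a replicate block and leaving out each library.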

Additional observations from a re-analysis of the deposited data

How the results depend on the processing

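Mt1 and Mt2, chosen on these same values, stayed lower than CM under all 17 alternatives, which is no independent support. The number of zinc family genes called outside the group was 0 under every alternative except library totals, which gave 2 between DM+Met and CM, Slc39a3 (2.65, adjusted p 0.0374) and Slc39a9 (1.35, adjusted p 0.0383). Library totals moved the median of all rows to 0.34 between DM+Met and DM and to 0.41 between DM+Met and CM. Relative to that shift Mt1, at 0.33 between DM+Met and DM, stayed near the median, while Mt2, at 0.56 (SE 0.23), lay above it without a call. Leaving out any library also gave 0 zinc family calls. These zinc family counts were partly set in advance by the choice of members. The 2154 and 7 calls over all rows (DM against CM and DM+Met against DM) fell to 541 to 1061 and 0 when a library was left out, to 795 and 0 with only the media compared, to 1329 and 0 without the intensity trend and to 1584 and 2 without a filter, while library totals gave 55, at least 10 reads in every library 27, limma-voom 21 and a pseudocount of 5 gave 13 between DM+Met and DM. The 1952 calls between DM+Met and CM fell to 268 to 1622 without a library, to 944 without the trend and to 1265 without a filter. Calls between DM+Met and CM rose to 2701 under library totals, to 2083 with a pseudocount of 5 and to 2080 with at least 10 reads in every library. Limma-voom gave 1582 calls between DM and CM and 1737 between DM+Met and CM. The file numbers were not labelled as pairs, and deviations of same-numbered libraries correlated at −0.030 to 0.0048. With them as a replicate block the zinc family count was 0, and Slc39a6 lost its call between DM+Met and CM. With 2 libraries per medium, the SE of 0.16 to 0.58 for the members limits what could be called.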
